A study of Mus musculus with 3 samples.

Results

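The G1 checkpoint was followed through the cells of the embryonic mouse forelimb bud by 8 genes: the cyclin-dependent kinase inhibitors Cdkn1a (p21), Cdkn1b (p27) and Cdkn1c (p57), the D-type cyclins Ccnd1, Ccnd2 and Ccnd3, and the pocket proteins Rb1 and Rbl1 (p107). They are 8 of the 31054 features counted in each library, and all were present in the 3 matrices. They were chosen by symbol with earlier results of these data in view, among them the levels, shares of positive cells and co-detection in mutant against control, so values of that contrast describe the genes and test nothing. D cyclins pair with the kinases CDK4 and CDK6 and begin the phosphorylation of Rb, which otherwise holds E2F transcription factors in check, and free E2F turns on the genes of DNA replication. The inhibitors p21, p27 and p57 bind cyclin-kinase complexes and can hold a cell before S phase, and p21 is a classic target of the DNA damage factor p53. In the limb bud, p21 is known to be expressed in the apical ectodermal ridge, the strip of ectoderm that drives outgrowth.

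Single-cell RNA sequencing had been done on forelimb buds at embryonic day 9.5. Mutant embryos were Esco2fl/fl;Prrx1-CreTg/0, homozygous for a floxed allele of Esco2, a cohesin acetyltransferase, and carrying a Cre transgene that the Prrx1 promoter drives in limb mesenchyme. Control embryos were Esco2fl/fl without the transgene, so both groups share the floxed alleles, and ectoderm, endothelium and blood are not the tissue that the driver targets. Here 2 mutant libraries and 1 control library were analysed, each from a pool of 3 samples with 2 limb buds apiece, while the design names 3 replicates per genotype. Pooled buds cannot be told apart, nothing says whether the pools came from separate litters, and the lone control gives no spread of its own. Fits of mutant against control therefore rest on the spread between the 2 mutants. For comparisons made inside each library, p-values measure how far those differences vary between these 3 libraries. Cells had been frozen and thawed before droplet capture with 3′ chemistry, so counts come from transcript ends and levels are compared between classes and groups, not between genes.

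After filtering, the mutant libraries held 3590 and 4684 cells and the control library 4048, and 18 to 19 cell barcodes were shared between any pair of libraries. Cells with at least 10000 UMIs (unique molecular identifiers, which count captured transcripts) were placed in a class when the summed UMIs of its markers passed a cut and those of every other list did not. Mesenchyme (Prrx1, Tbx5, Twist1 and others) held 1085 and 1943 mutant cells and 843 control cells, ectoderm (Epcam, Cdh1, Trp63 and others) 373 and 234 against 278, endothelium (Pecam1, Cdh5, Kdr and others) 377 and 422 against 472, and erythroid cells (embryonic globins and others) 601 and 444 against 398. In mesenchyme all 8 of its markers stood at 20 CPM (UMIs per 1000000 UMIs of a class in a library) or more in every library, while the 10 ectodermal markers summed to 5.46 to 9.18, the 11 endothelial ones to 32.6 to 34.1 and the 6 macrophage ones to 1.74 to 2.97 CPM. The 6 flank markers (Foxf1, Hand1 and others) summed to 84.6 and 51.9 CPM in mutant and 97.3 in control mesenchyme. The 9 erythroid markers summed to 504 and 491 CPM in mutant mesenchyme and 432 in control mesenchyme, with the control the lowest. In ectoderm 8 and 7 of its 10 markers stood at 20 CPM or more in the mutants and 8 in the control. The 5 myogenic markers summed to 105.6 and 90.4 CPM in mutant and 91.6 in control ectoderm, mostly from 1 marker. The 5 coelomic markers summed to 99.5 and 63.3, against 142.7, also mostly from 1 marker. Esco2 itself had 22.6 and 21.4 CPM in mutant mesenchyme, against 31.3 in control mesenchyme, and 24.3 and 27.1 in mutant erythroid cells, against 28.0. The position of the deleted part is not stated in the labels, so these counts of transcript ends do not measure the deletion.

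For Cdkn1a, whose RNA differed most between the groups, the promoter window of the upstream annotated start is shown, the one that holds a p53 pattern. That of Rbl1 is shown because it holds a motif of the E2F factors, which pocket proteins bind. RefSeq windows on GRCm38.p6, 300 bases each from 250 before to 50 after an annotated start, matched 4 of the 8 members (6 windows). Each is written 5′ to 3′ on the strand of its gene, at chr17:29090729-29091028 (plus strand) for Cdkn1a and at chr2:157204485-157204784 (minus strand) for Rbl1.
Cdkn1a: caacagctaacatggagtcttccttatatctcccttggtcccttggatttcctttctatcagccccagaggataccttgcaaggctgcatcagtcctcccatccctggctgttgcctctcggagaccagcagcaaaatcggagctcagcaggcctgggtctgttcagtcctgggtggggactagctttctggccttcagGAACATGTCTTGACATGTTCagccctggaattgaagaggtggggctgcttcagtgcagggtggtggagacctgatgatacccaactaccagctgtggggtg
Rbl1: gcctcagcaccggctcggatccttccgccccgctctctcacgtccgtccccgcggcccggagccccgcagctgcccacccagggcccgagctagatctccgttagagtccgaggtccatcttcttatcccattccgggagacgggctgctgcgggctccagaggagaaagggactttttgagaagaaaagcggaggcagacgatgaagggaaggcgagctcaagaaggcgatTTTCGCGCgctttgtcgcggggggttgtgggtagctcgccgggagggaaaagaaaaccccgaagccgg
In the Cdkn1a window the capitals mark the 20 bases around a match to CATGNNNNNNCATG, the paired core of a p53 site, from 51 to 32 bases before the upstream start. Searched on both strands, this pattern was in 0.712% of 32851 windows. In the Rbl1 window they mark TTTCGCGC, from 18 to 11 bases before the start, 1 of 4 E2F patterns searched (TTTCCCGC, TTTCGCGC, TTTGCCGC and TTTGGCGC), which together were in 2.26% of the windows. The second Cdkn1a window, further downstream at chr17:29093519-29093818, and those of Cdkn1b and Ccnd3 held neither pattern. The p53 pattern thus lies near the upstream Cdkn1a start and not near the downstream one, and a match is a match of letters only.

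Cdkn1a (ENSMUSG00000023067, GRCm38 chromosome 17, 29090976 to 29100727, plus strand) was the member that differed most between the groups, and the difference lay in mesenchyme. It had 65.1 and 61.8 CPM in the mesenchyme of mutants 1 and 2, against 1.53 in the control (95% Poisson interval 1.22 to 1.89, which like all such intervals here covers counting error only). Both mutants were far above the control, by 42.5 and 40.4 times. In ectoderm it had 46.3 and 65.4 CPM in the mutants, against 47.6 in the control, with the mutants on either side. In endothelium it had 21.8 and 9.91 in the mutants and 9.09 in the control, so only mutant 1 stood apart there. Erythroid cells had 1.33 and 6.49 in the mutants and 7.21 in the control, where 88 UMIs came from 1 cell (5.01 without it). Among the control's classes mesenchyme had the lowest Cdkn1a level, and in mutant 1 it had the highest. A class sum alone cannot tell more cells with the transcript from more RNA per cell.

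Cdkn1a transcripts sat in few mesenchyme cells. With every cell thinned to 10000 UMIs, 13.1% of mesenchyme cells of mutant 1 had a Cdkn1a UMI (95% Clopper-Pearson interval 11.1% to 15.2%) and 11.6% of mutant 2 (10.2% to 13.1%), against 0.712% in the control (0.262% to 1.54%). Erythroid cells had one in 0.998% and 2.25% of mutant cells and 3.02% of control cells, at median depths of 66170, 61213 and 97184.5 UMIs before thinning. Before thinning, the richest erythroid cell of each library had 11, 50 and 88 Cdkn1a UMIs. The shares thus include cells with many transcripts and do not measure a background of free RNA. Unthinned, the mesenchyme shares were 18.4% and 18.3% in the mutants and 2.37% in the control, at median depths of 39970, 54604 and 47926 UMIs. The 10% of mesenchyme cells with the most Cdkn1a UMIs held 95.3% and 96.6% of all of them in the mutants, and the richest cell had 144 and 163 UMIs. In the control, 27 of the 86 UMIs came from 1 cell, without which its mesenchyme level was 1.05 CPM.

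In ectoderm a larger share of cells had the transcript in every library. A Cdkn1a UMI was seen in 24.7% and 35.0% of mutant ectoderm cells (intervals 20.4% to 29.4% and 28.9% to 41.5%), against 27.3% in the control (22.2% to 33.0%). The 10% of ectoderm cells richest in it held 43.4% and 47.8% of its UMIs in the mutants and 47.8% in the control. Control ectoderm thus had 47.6 CPM of Cdkn1a where control mesenchyme had 1.53. Unthinned ectoderm shares were 56.8% and 51.7% in the mutants and 62.6% in the control, at median depths of 34349, 25157.5 and 52735.5 UMIs, the deepest library having the highest share.

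**Figure D1:**
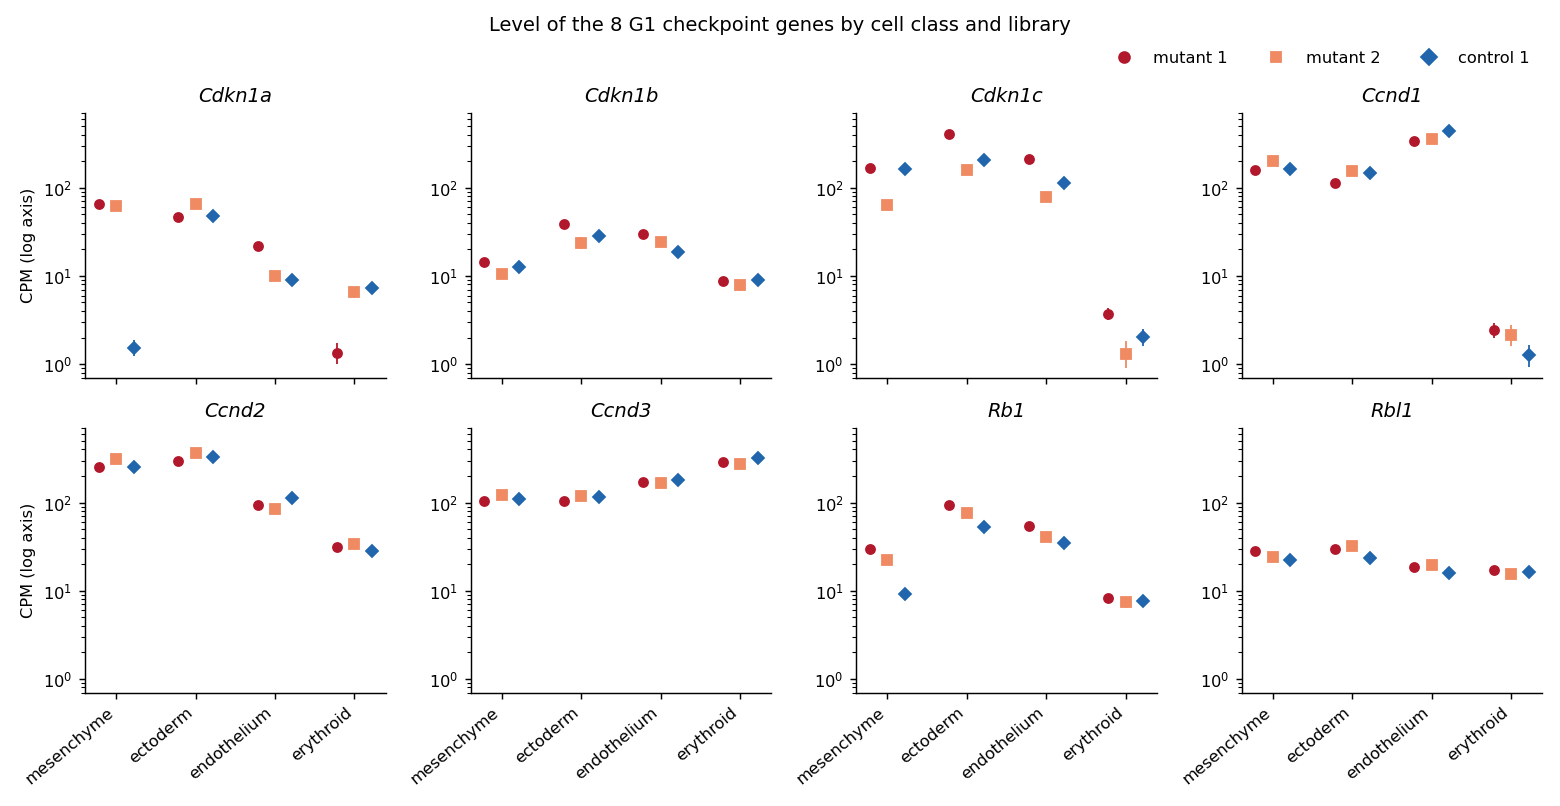
Level of each of the 8 genes in CPM of all UMIs of a class (log axis), in mesenchyme, ectoderm, endothelium and erythroid cells of mutant 1, mutant 2 and control 1; bars are 95% Poisson intervals, mostly smaller than the symbols. The control point of Cdkn1a in mesenchyme, 1.53, lies apart from the mutant points, 65.1 and 61.8, and mutant 2 has the lowest Cdkn1c in every class.

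**Figure D2:**
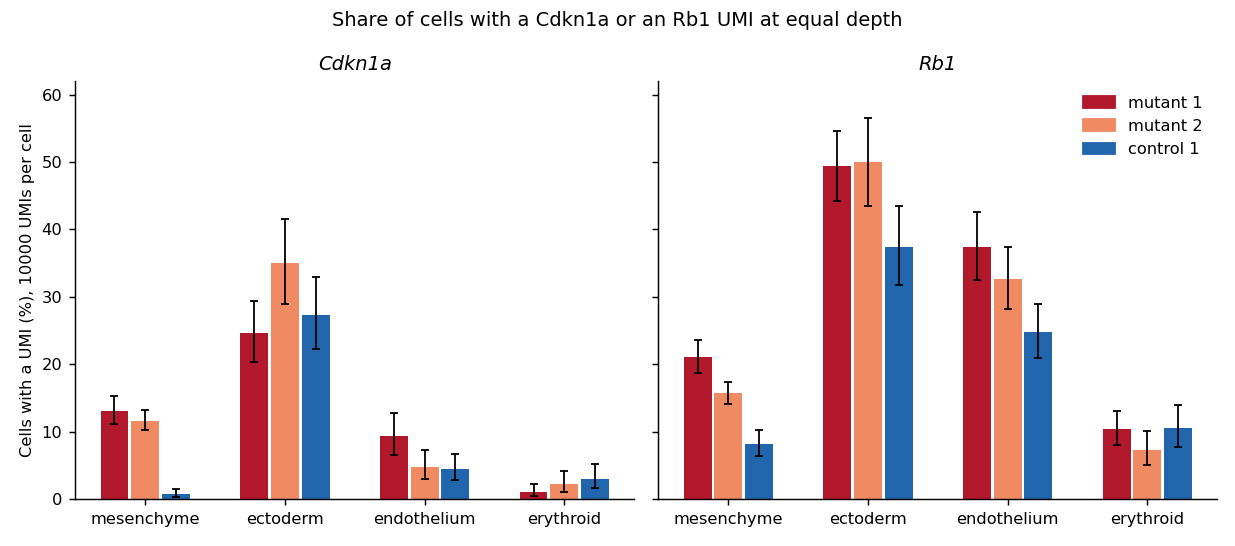
Share of cells with at least 1 UMI of Cdkn1a (left) or Rb1 (right) after thinning every cell to 10000 UMIs, by class and library, with 95% Clopper-Pearson intervals over cells. For Cdkn1a the mutant bars exceed the control bar in mesenchyme (13.1% and 11.6% against 0.712%) and lie on either side of it in ectoderm, and for Rb1 they exceed it in mesenchyme, ectoderm and endothelium.

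Of the other inhibitors, Cdkn1b (ENSMUSG00000003031, chromosome 6, 134920401 to 134925513, plus strand), which is known to hold cells in quiescence, had at most 39.0 CPM in any class. It had 14.4 and 10.6 CPM in mutant mesenchyme, against 12.7 in the control, 39.0 and 23.6 against 28.3 in ectoderm, and 30.3 and 24.2 against 18.6 in endothelium. Erythroid cells had 8.76 and 7.80 in the mutants and 9.09 in the control. The mutants lay on either side of the control in mesenchyme and ectoderm and above it in endothelium. Of mesenchyme cells at 10000 UMIs, 12.2% and 10.1% in the mutants and 10.3% in the control had a Cdkn1b UMI, against 9.15% and 7.88% of mutant and 5.53% of control erythroid cells.

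Cdkn1c (ENSMUSG00000037664, chromosome 7, 143458339 to 143461050, minus strand), the imprinted inhibitor of growing tissues, differed between the mutants more than between the groups. It had 167 and 63.0 CPM in mutant mesenchyme, against 165 in the control. In ectoderm it had 408 and 159 in the mutants and 205 in the control, and in endothelium 214 and 77.9 in the mutants and 114 in the control. Mutant 2 was the lowest library in each of these classes, and in erythroid cells as well, at 1.31 against 3.74 in mutant 1 and 2.01 in the control. The share of mesenchyme cells with a Cdkn1c UMI was 54.3% and 38.6% in the mutants and 55.9% in the control, and of erythroid cells 3.16% and 1.58% against 2.26%. No direction between the genotypes is given for this gene, since mutants 1 and 2 lie on either side of the control in ectoderm and endothelium.

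The D cyclins, which carry growth signals into the cycle, had nearly the same levels in the mesenchyme of mutant 1 and of the control. Ccnd2 (ENSMUSG00000000184, chromosome 6, 127125162 to 127152193, minus strand) had 254.7 and 312.6 CPM in mutant mesenchyme, against 254.4 in the control. Ccnd1 (ENSMUSG00000070348, chromosome 7, 144929931 to 144939925, minus strand) had 159 and 201 in mutant mesenchyme, against 165 in the control. Ccnd3 (ENSMUSG00000034165, chromosome 17, 47505051 to 47599691, plus strand) had 105 and 123 in mutant mesenchyme, against 109 in the control. Mutant 2 was the highest library for each of them there. In ectoderm Ccnd2 had 293 and 365 CPM in the mutants, against 330 in the control, Ccnd1 113 and 154 against 146, and Ccnd3 104 and 119 against 116, and the control lay between the mutants each time. In endothelium all of them were lower in both mutants. There Ccnd1 had 337 and 358 CPM in the mutants, against 438 in the control, Ccnd2 94.5 and 84.2 against 113, and Ccnd3 173 and 165 against 182. The shares of mesenchyme cells with a UMI were 65.3% and 77.7% against 71.2% for Ccnd1, 83.2% and 90.1% against 85.5% for Ccnd2, and 58.2% and 65.5% against 60.5% for Ccnd3, at 10000 UMIs per cell.

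Rb1 (ENSMUSG00000022105, chromosome 14, 73183673 to 73325822, minus strand), the retinoblastoma protein that restrains E2F, was the other member that differed in mesenchyme. It had 30.0 and 22.6 CPM in mutant mesenchyme, against 9.22 in the control. Both mutants were also higher in ectoderm, with 93.8 and 76.1 against 53.2, and in endothelium, with 53.6 and 40.5 against 34.7. The nuclear RNA Malat1 was higher in the mutants there too, with 8347 and 7957 CPM against 5657 in ectoderm and 3911 and 3883 against 3567 in endothelium, and its part in these differences was not tested. In erythroid cells Rb1 was not higher in both mutants, with 8.31 and 7.42 against 7.58. At 10000 UMIs per cell, an Rb1 UMI was in 21.0% and 15.7% of mutant mesenchyme cells (intervals 18.6% to 23.6% and 14.1% to 17.4%), against 8.19% in the control (6.42% to 10.2%). Unthinned, the shares were 45.4% and 39.2% in the mutants and 28.7% in the control. Erythroid shares were 10.3% and 7.21% in the mutants and 10.6% in the control, so the control mesenchyme share lay within their range. A feature on the same strand, Gm17233, overlaps Rb1, and had at most 0.711 CPM in any class. Rbl1 (ENSMUSG00000027641, chromosome 2, 157145893 to 157204534, minus strand), the pocket protein of cycling cells, had 28.6 and 23.8 CPM in mutant mesenchyme, against 22.4 in the control, and 30.0 and 32.4 against 23.4 in ectoderm. In endothelium Rbl1 had 18.8 and 19.7 against 16.0, and there and in ectoderm both mutants were above the control beyond counting error. Its mesenchyme shares were 22.6% and 19.97% in the mutants and 18.5% in the control, and its erythroid shares 16.8% and 16.7% against 16.1%.

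As a description, with 1 control library and with genes chosen for this contrast, the edgeR quasi-likelihood fit over all genes passed 2 of the 8 members in mesenchyme, Cdkn1a with a log2 fold of 5.32 (SE 0.39) and Rb1 with 1.46 (SE 0.29), where it passed 1.54% of all genes tested (0.918% higher and 0.622% lower). Nothing is read from that count, since the choice of genes used this contrast. The same 2 genes were at least 2-fold higher in both mutants in mesenchyme, as were 0.671% of all genes, while 0.207% were at least 2-fold lower. No member was past 2-fold in both mutants in ectoderm, endothelium or erythroid cells, where 0.704%, 0.256% and 0.0414% of all genes were higher and 0.178%, 0.154% and 0.124% lower. In ectoderm, endothelium and erythroid cells the same fit passed 0 genes of any kind at an adjusted p under 0.05, with 1106, 675 and 181 genes at an unadjusted p under 0.05, while DESeq2 passed 34, 46 and 24. In mesenchyme the fit gave all genes a common spread, unlike in the other classes, so these counts are not compared between classes. Of 30 other genes of the G1 pathway, 27 were tested in mesenchyme and 0 passed, with a median log2 fold of -0.06 beside -0.01 over all genes. An unadjusted p under 0.05 was reached by 2 of them, and by 538 of the 10135 genes tested. The 2 were E2f6, a repressor E2F, with a log2 fold of -0.53, and Rbl2, the third pocket protein (p130), with 0.65. E2f6 was lower in the other classes too, with -0.43 in ectoderm, -0.84 in endothelium and -0.57 in erythroid cells. Rbl2 was higher in ectoderm (0.36) and endothelium (0.59) and not in erythroid cells (-0.07). Neither difference was thus particular to mesenchyme.

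RNA quality moved with some members within every library. Among mesenchyme cells with under 2% mitochondrial UMIs, Rb1 had 18.5 and 13.8 CPM in the mutants, against 5.52 in the control. With 2% to 5% it had 34.3 and 27.7 against 10.5, and with 5% to 10% it had 67.7 and 64.6 against 24.7. Rb1 was thus higher in cells with a larger mitochondrial share in each library, and higher in both mutants than in the control at each level of that share. Rbl1 took the same course within libraries, with 22.6, 33.2 and 41.7 CPM over the 3 ranges in mutant 1, 19.6, 26.7 and 41.4 in mutant 2 and 17.5, 22.2 and 47.6 in the control. Ccnd1 ran the other way, with 184, 146 and 82.5 in mutant 1, 222, 187 and 109 in mutant 2 and 184, 156 and 96.6 in the control. Cdkn1c had 223, 124 and 46.8 CPM over the 3 ranges in mutant 1, 56.8, 77.3 and 28.0 in mutant 2 and 185, 175 and 40.6 in the control. It was lowest at 5% to 10% in each library, but in mutant 2 highest at 2% to 5%. Cdkn1a had 64.0, 80.6 and 27.8 in mutant 1 and 47.7, 84.1 and 43.7 in mutant 2. The control had 2.33, 0.357 and 0.467, from 77, 6 and 3 UMIs. The share of mesenchyme cells at 5% or more was 28.1% and 15.9% in the mutants and 21.6% in the control, and cells of that range had median depths of 20565 and 20592 UMIs in the mutants and 32610.5 in the control. Malat1, a nuclear RNA, stood at 4111 and 3274 CPM in mutant mesenchyme, against 3320 in the control. Restricted to cells under 5%, the fitted log2 fold of Rb1 was 1.54, and an Rb1 UMI was in 17.6% and 12.2% of mutant mesenchyme cells, against 5.45% in the control. The part of RNA quality in the levels of Rb1, Rbl1, Ccnd1, Cdkn1c and Cdkn1a was not tested.

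**Figure D3:**
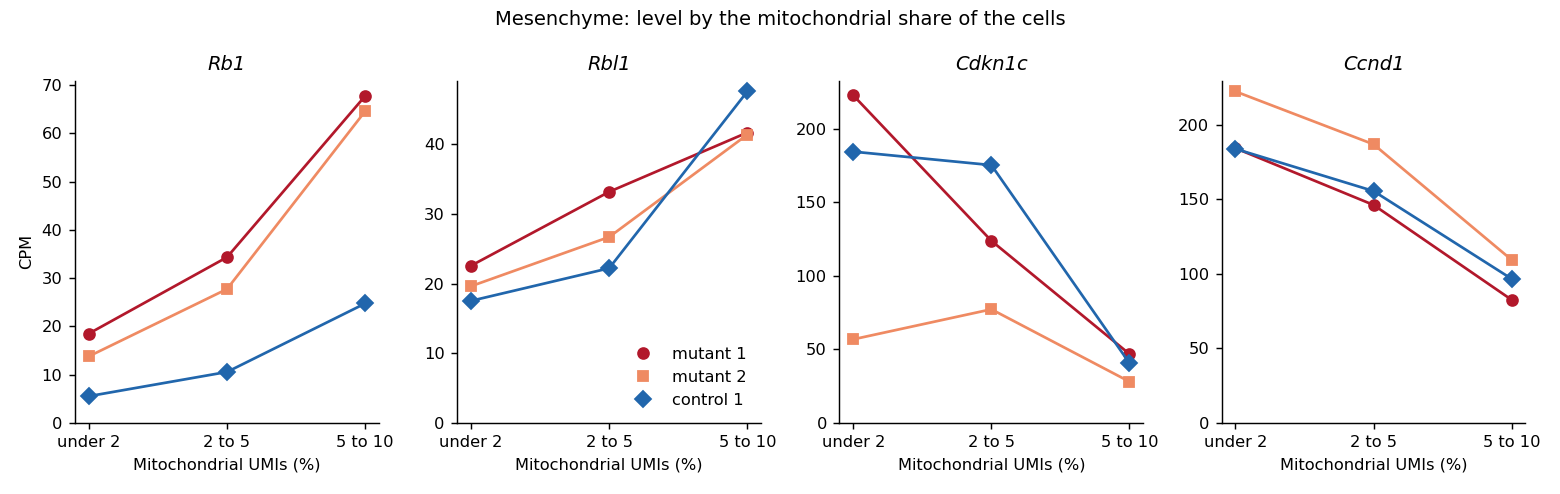
Level of Rb1, Rbl1, Cdkn1c and Ccnd1 in CPM (linear axes from 0) in mesenchyme cells with under 2%, 2% to 5% and 5% to 10% mitochondrial UMIs, with a line for each library. Rb1 and Rbl1 lines climb and Ccnd1 lines descend in all 3 libraries, and the mutant lines of Rb1 lie above the control line throughout.

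Co-detection was among the values that chose the genes, so it is given as a description. At 10000 UMIs, a UMI of both Rb1 and Cdkn1a was in 6.91% of mesenchyme cells of mutant 1 (5.48% to 8.59%), where the product of both shares is 2.75%, a ratio of 2.51. In mutant 2 the share was 5.76% (4.77% to 6.89%) against a product of 1.83%, a ratio of 3.16. An Rb1 UMI was in 52.8% of the 142 cells of mutant 1 with a Cdkn1a UMI, against 16.2% of those without, and in 49.6% of the 226 such cells of mutant 2, against 11.2%. Only 6 control cells had a Cdkn1a UMI, and 0 of them an Rb1 UMI. All other pairs of members in mutant mesenchyme had ratios from 0.820 to 1.32. In ectoderm, where Cdkn1a is common, the Cdkn1a and Rb1 ratio was 0.881 and 1.20 in the mutants and 0.985 in the control.

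Counting all UMIs of these cells, Rb1 had 99.6 and 105.5 CPM in mutant mesenchyme cells with a Cdkn1a UMI, against 18.0 and 10.7 in the mutant cells without one. The whole control mesenchyme had 9.22, so the level in the Cdkn1a-free cells of mutant 2 was close to the control and that of mutant 1 was above it. The other members differed less: Ccnd1 had 138 and 167 CPM with a Cdkn1a UMI, against 162 and 206 without, Cdkn1b 10.8 and 8.95 against 15.0 and 10.9, and Rbl1 23.1 and 21.5 against 29.5 and 24.2. Cdkn1c had 169 and 76.4 with, against 167 and 61.1 without. Of the 7 other members, Rb1 was higher in cells with a Cdkn1a UMI in both mutants, and 5 were lower. Cdkn1c hardly differed in mutant 1 and was somewhat higher in mutant 2. Median mitochondrial shares were 2.52% and 2.33% with, against 2.96% and 2.08% without, and median depths 47112.5 and 54870 UMIs with, against 39221 and 54578 without.

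All 15 listed companions of p53 were higher in the Cdkn1a-positive cells of mutant mesenchyme, with a median ratio of 12 in mutant 1 and 14.9 in mutant 2. In the 6 such cells of control mesenchyme 14 of 15 were higher, with a median ratio of 2.80. Several of these rest on few UMIs: 1 for Pmaip1 and 4 each for Trp53inp1, Btg2 and Bbc3. Ccng1 had 61.6 CPM there, against 6.38 in control cells without a Cdkn1a UMI. Mdm2, the ubiquitin ligase that degrades p53, had 336 and 314 CPM with a Cdkn1a UMI, against 49.3 and 44.6 without. Ccng1, a cyclin induced by p53, had 218 and 222, against 14.7 and 12.9. Trp53 itself differed less, with 181 and 203, against 131 and 163. Mki67 and Top2a, genes of proliferating cells, were lower there: Mki67 had 215 and 213, against 301 and 257, and Top2a 384 and 387, against 535 and 524. The S-phase list summed to 5046 and 5219 with, against 4810 and 5146 without, and the G2/M list to 7333 and 7853, against 8360 and 9098. In ectoderm 11 and 12 of the 15 companions were higher in the mutants and 11 in the control, with median ratios of 1.11 and 1.14 in the mutants and 1.15 in the control. Phlda3 was higher there by 1.24 and 1.81 times in the mutants and 1.49 times in the control. Mdm2 had 53.4 and 54.5 CPM with a Cdkn1a UMI, against 61.3 and 66.1 without, in the mutants, and 57.3 against 63.4 in the control. The median ratios in Cdkn1a-positive ectoderm were thus only a little above 1, and Mdm2 was lower in all 3 libraries. These ectoderm cells were deeper, with medians of 39169.5 and 28246.5 UMIs in the mutants and 79874 in the control. Without a Cdkn1a UMI the medians were 31681, 24496 and 46501.5. Their median mitochondrial shares were 2.36%, 3.20% and 2.46% with one, against 2.86%, 4.14% and 3.57% without. The part of depth and RNA quality in the ectoderm ratios was not tested. These companions were listed with the mutant pattern known, so their counts are a description. The share of all genes that were higher in Cdkn1a-positive cells is not given here, so nothing is read from the counts.

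**Figure D4:**
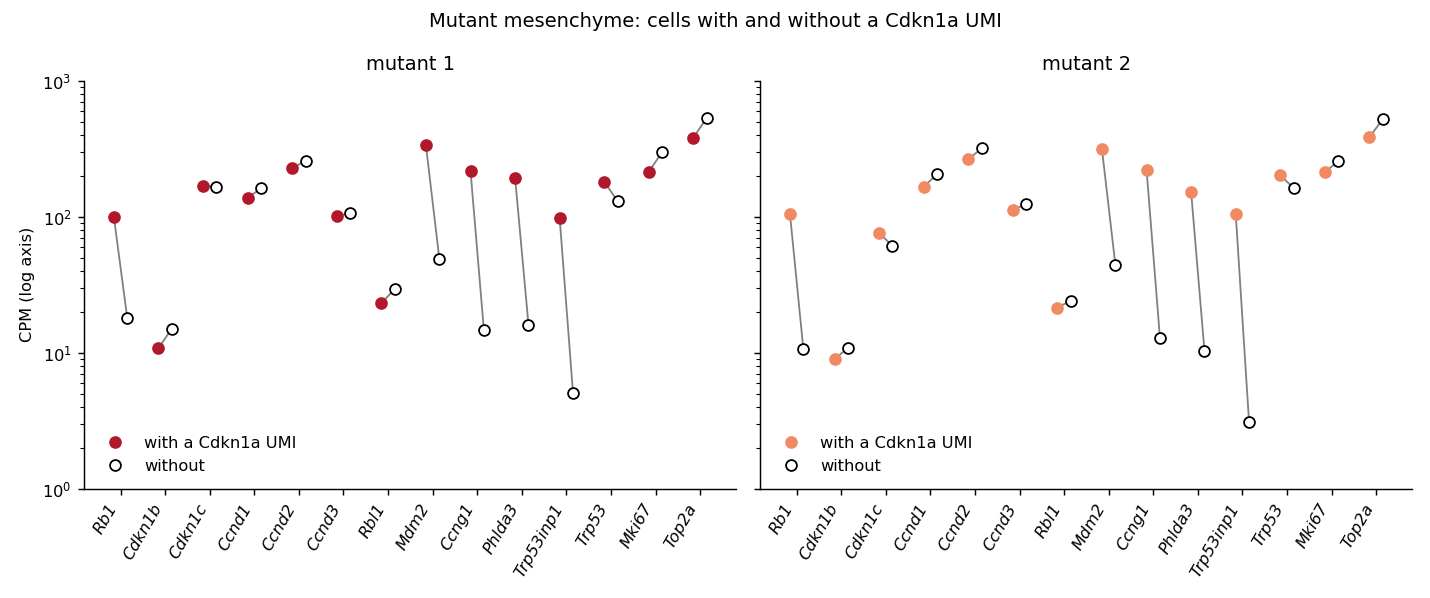
Level in CPM (log axis) of 14 genes in mesenchyme cells with (filled, left) and without (open, right) a Cdkn1a UMI at 10000 UMIs per cell, in mutant 1 and mutant 2. Rb1, Mdm2, Ccng1, Phlda3 and Trp53inp1 lie well above in cells with a Cdkn1a UMI, while Cdkn1b, Ccnd1, Ccnd2, Ccnd3, Rbl1, Mki67 and Top2a lie somewhat below.

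Each D cyclin had its own order of classes. These class comparisons were tested with edgeR's quasi-likelihood fit over the 12 class sums with the library as a block, and adjusted over all genes. Over the 3 libraries Ccnd1 averaged 378 ± 53.2 CPM in endothelium, 175 ± 22.8 in mesenchyme, 138 ± 21.8 in ectoderm and 1.94 ± 0.613 in erythroid cells (SD, n = 3 libraries of both genotypes). Ccnd2 ran in another order, with 329 ± 35.8 in ectoderm, 274 ± 33.5 in mesenchyme, 97.3 ± 14.7 in endothelium and 31.0 ± 2.65 in erythroid cells. Ccnd3 averaged 294 ± 24.9 in erythroid cells, 173 ± 8.26 in endothelium, 113.0 ± 8.25 in ectoderm and 112.7 ± 9.40 in mesenchyme. The neighbours ectoderm and mesenchyme did not differ beyond their spread for Ccnd2 (adjusted p = 0.36 by edgeR) or Ccnd3 (adjusted p = 0.30), and differed by a small step for Ccnd1.

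In endothelium against mesenchyme, Ccnd1 rose by a log2 fold of 1.27 (SE 0.18, adjusted p = 7.2e-05 by edgeR), Ccnd3 by 0.78 (SE 0.09, adjusted p = 1.1e-05) and Ccnd2 fell by 1.33 (SE 0.14, adjusted p = 7.3e-06). Cdkn1b, at 24.4 ± 5.83 CPM in endothelium and 12.6 ± 1.89 in mesenchyme, rose by 1.10 (SE 0.15, adjusted p = 4.4e-05). Rb1, at 43.0 ± 9.69 and 20.6 ± 10.6, rose by 1.30 (SE 0.20, adjusted p = 0.00014 by edgeR). Rbl1 was lower by a small step, with a log2 fold of -0.30 (adjusted p = 0.0086), a call lost without mutant 1 or without the control (adjusted p = 0.12 and 0.071). Cdkn1a and Cdkn1c did not pass, with log2 folds of -1.26 and 0.16. The 6 of 8 members called (4 higher, 2 lower) stand beside 63.9% of all genes tested (32.3% higher, 31.6% lower), a share near that background. Of 27 pathway genes tested, 5 rose and 8 fell (median log2 fold 0.02, beside 0.00 over all genes), among them the CDK inhibitor Cdkn2d at 0.98 and cyclin E1, Ccne1, at -2.09.

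In ectoderm Rb1, Cdkn1b and Cdkn1c were higher than in mesenchyme. Rb1 averaged 74.4 ± 20.3 CPM in ectoderm and 20.6 ± 10.6 in mesenchyme, with a log2 fold of 1.81 (SE 0.20, adjusted p = 2e-05 by edgeR). Cdkn1b averaged 30.3 ± 7.89 and 12.6 ± 1.89 (log2 fold 1.16, adjusted p = 6e-05), and Cdkn1c 258 ± 133 and 132 ± 59.6 (log2 fold 0.84, adjusted p = 0.0021). Ccnd1 was lower in ectoderm, with a log2 fold of -0.46 (adjusted p = 0.042), a call lost without mutant 1 or without mutant 2 (adjusted p = 0.15 and 0.18). Ectoderm cells had more Malat1 than mesenchyme cells, 8347 and 7957 CPM in the mutants and 5657 in the control, against 4111, 3274 and 3320. Median mitochondrial shares were 2.73% and 4.01% in mutant and 3.30% in control ectoderm, against 2.91% and 2.12% in mutant and 1.91% in control mesenchyme. With cells under 5% mitochondrial UMIs the Rb1 fold was 1.87, and among cells under 2% Rb1 had 72.3 and 79.1 CPM in mutant and 35.0 in control ectoderm, against 18.5, 13.8 and 5.52 in mesenchyme. These are 4 of 8 members (3 higher, 1 lower), beside 60.7% of all genes tested (28.9% higher, 31.8% lower). For Cdkn1a the fit gave a log2 fold of 0.49 (SE 0.88, adjusted p = 0.65), and of -0.33 with the control left out: the control level was higher in ectoderm than in mesenchyme, and the mutant levels were of like size in both. Of 27 pathway genes, 3 rose and 15 fell (median log2 fold -0.33, beside -0.02 over all genes), among them the growth regulator Myc at -2.88 and Ccne1 at -1.04.

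In erythroid cells Ccnd3, which is known to act in the division of red cell precursors, was high and Ccnd1 was at the edge of detection. Ccnd3 had 287 and 274 CPM in mutant erythroid cells and 322 in the control, and Ccnd1 2.44 and 2.13 against 1.26. The erythroid markers summed to 376091 and 395859 CPM in these cells of the mutants and 338864 in the control, which leaves fewer UMIs for every other gene. The median log2 ratio of all genes to mesenchyme was -1.20 by CPM and -0.04 with TMM factors. On the TMM scale Ccnd3 rose by 2.66 (SE 0.09, adjusted p = 2.5e-10 by edgeR), Ccnd1 fell by 5.21 (SE 0.23), Cdkn1c fell by 4.58 (SE 0.23) and Ccnd2 fell by 1.86 (SE 0.15). Cdkn1b and Rbl1 were called higher on that scale (0.72 and 0.67), but were lower in CPM (8.55 against 12.6 for Cdkn1b, 16.3 against 24.9 for Rbl1). Cdkn1a and Rb1 did not pass (-1.47 and -0.02). The 6 of 8 members called (3 higher, 3 lower) stand beside 81.5% of all genes tested (39.3% higher, 42.3% lower), and 12 pathway genes rose and 12 fell of 27, with Cdk6 at -5.82, Mycn at -5.17 and E2f2 at 3.07.

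Within ectoderm, cells were split by Fgf8, a growth factor that the apical ridge is known to secrete and that no gate used. Cells with at least 2 Fgf8 UMIs at 10000 UMIs numbered 115 and 82 in the mutants and 97 in the control, and cells with 0 numbered 237 and 142 in the mutants and 160 in the control. Rb1 had 157 CPM in Fgf8-positive and 62.3 in Fgf8-negative cells of mutant 1, 146 and 43.1 in those of mutant 2, and 73.8 and 39.0 in those of the control. It was higher in Fgf8-positive cells in 3 of 3 libraries, with a log2 fold of 1.35 (SE 0.14, adjusted p = 0.00045 by edgeR with the library as a block). Its share of cells was 73.0% against 40.1% in mutant 1, 74.4% against 37.3% in mutant 2 and 48.5% against 29.4% in the control.

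Cdkn1a was also higher in Fgf8-positive cells in 3 of 3 libraries. It had 53.2 CPM in Fgf8-positive and 41.1 in Fgf8-negative cells of mutant 1, 123 and 32.1 in mutant 2, and 64.1 and 39.0 in the control. Its log2 fold was 0.99 (SE 0.24, adjusted p = 0.032 by edgeR), a call that DESeq2 did not make (adjusted p = 0.21), and the size of the step differed between libraries. Cdkn1c fell by 0.60 (SE 0.07, adjusted p = 0.0011 by edgeR), with 304 against 463 CPM in mutant 1, 120 against 175 in mutant 2 and 144 against 244 in the control. Ccnd1 fell by 0.58 (SE 0.11, adjusted p = 0.01), with 70.7 against 134, 118 against 171 and 122 against 161; without mutant 1 the adjusted p was 0.077. Cdkn1b, Ccnd2, Ccnd3 and Rbl1 did not pass, with log2 folds from -0.12 to 0.29. The 4 of 8 members called (2 higher, 2 lower) stand beside 11.6% of all genes tested (5.96% higher, 5.65% lower). Of 26 pathway genes 0 rose and 3 fell: Mycn at -1.12, Cdk6, the partner of D cyclins, at -1.04, and E2f5 at -0.39. Fgf8-positive cells had a median depth of 36268 UMIs against 33629 in Fgf8-negative cells of mutant 1, 24485 against 25802.5 in mutant 2 and 50067 against 53861 in the control. Their median mitochondrial shares were 2.76% against 2.66%, 3.88% against 4.09% and 3.57% against 3.25%. Malat1 was higher in them in the mutants, at 9286 against 7791 CPM and 8892 against 7501, and lower in the control, at 5497 against 5793, and its part in these results was not tested.

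Within mesenchyme, each library was split by the log2 ratio of summed S-phase to summed G2/M gene counts, and the third of the cells with the highest ratio was set against the third with the lowest. The lists hold none of the 8 members, and the sides are ranges of a score, not cell types, with 51 to 223 cells within 0.1 of a limit in a library. Rb1 had 44.3 CPM on the S side and 21.8 on the G2/M side in mutant 1, 28.0 and 18.1 in mutant 2, and 15.5 and 6.36 in the control. It rose by 0.94 (SE 0.11, adjusted p = 0.0005 by edgeR with the library as a block) and was higher in 3 of 3 libraries. Malat1 was lower on the S side in every library, as were Cdkn1b and Rbl1 (below). It had 2894 against 5215 CPM in mutant 1, 2206 against 4076 in mutant 2 and 2117 against 4322 in the control. Median depths were 37324.5 UMIs on the S and 39680 on the G2/M side in mutant 1. They were 50472.5 and 59911.5 in mutant 2 and 47557 and 50149 in the control. Median mitochondrial shares were 2.77% and 2.96%, 2.08% and 2.19%, and 2.07% and 1.93%. The part of depth and RNA quality in the phase results was not tested.

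Cdkn1b took the course opposite to Rb1, with 11.5 CPM on the S side and 19.7 on the G2/M side in mutant 1. Its levels were 7.06 and 15.1 in mutant 2 and 8.33 and 16.9 in the control. It fell by 0.94 (SE 0.10, adjusted p = 0.00025 by edgeR). Rbl1 fell by 0.44 (SE 0.06, adjusted p = 0.00083), with 23.7 against 33.6, 19.5 against 27.3 and 18.2 against 24.4. Ccnd1 and Ccnd3 rose by 0.21 and 0.20 (adjusted p = 0.0055 and 0.0086), small steps of the same sign in 3 of 3 libraries; without mutant 2 the adjusted p of Ccnd3 was 0.091. Ccnd2 and Cdkn1c did not pass (log2 folds of -0.05 and -0.11).

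For Cdkn1a both mutants were higher on the S side, and the control had too few positive cells to give a direction. It had 103 CPM on the S side and 34.8 on the G2/M side in mutant 1, and 84.7 and 33.5 in mutant 2, while the control had 0.850 and 2.14, from 15 and 42 UMIs. Its fitted log2 fold was 1.38 (SE 0.19, adjusted p = 0.0011 by edgeR), a call that DESeq2 did not make (log2 fold 0.66, adjusted p = 0.66). The share of cells with a Cdkn1a UMI was 17.1% on the S side (13.4% to 21.4%) against 10.2% on the G2/M side (7.30% to 13.8%) in mutant 1, and 13.4% (10.9% to 16.3%) against 8.80% (6.73% to 11.2%) in mutant 2. In the control 2 of 281 S-side cells had one (0.0863% to 2.55%), against 3 of 281 G2/M-side cells (0.221% to 3.09%). Called were 6 of 8 members (4 higher, 2 lower), beside 38.1% of all genes tested (20.9% higher, 17.2% lower). Of 27 pathway genes tested 14 rose and 4 fell. Those that rose included Ccne2 at 2.75 and E2f2 at 2.75, both of the G1/S transition, and Ccne1 at 1.14, and those that fell Fzr1, an activator of the anaphase-promoting complex, at -2.01, Cdkn2d at -1.04, Ccna2 at -0.32, and Cks2 at -1.37, which is itself on the G2/M list.

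**Figure D5:**
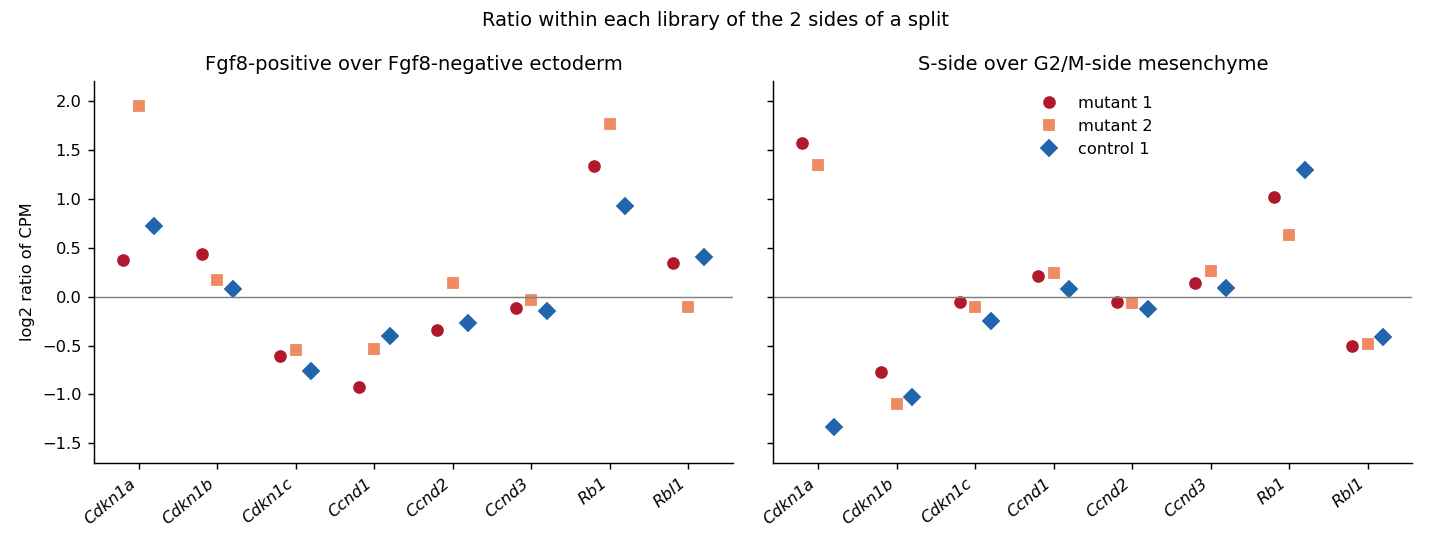
Log2 ratio of CPM between the sides of a split within each library, Fgf8-positive over Fgf8-negative ectoderm (left) and S-side over G2/M-side mesenchyme (right), for the 8 genes. Rb1 lies above 0 in all 3 libraries in both splits, Cdkn1c and Ccnd1 lie below 0 in the ectoderm split, Cdkn1b and Rbl1 lie below 0 in the phase split, and Cdkn1a is below 0 in the control of the phase split only.

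Genes whose log2 level followed a member most closely were found by Pearson correlation over the 12 class sums, among 10433 genes, as a description. The 12 sums come from 3 libraries and 4 classes, so much of this likeness can be a shared class pattern. For Cdkn1a it also holds the difference between the groups in mesenchyme, 65.1 and 61.8 CPM against 1.53. That difference was known when the genes were chosen. Cdkn1a was followed by Sesn2 (r = 0.93), Lpin1 (0.91) and Trp53inp1 (0.90), of which Sesn2 and Trp53inp1 are on the list of p53 companions. Rb1 was followed by Gkap1 (0.98), Rims2 (0.97) and Cyp26b1 (0.97), and Gkap1 also led for Cdkn1b (0.97), before Klhl8 and Bend7 (both 0.97). Rbl1 was nearest to Kif18a, a mitotic kinesin (0.98), Zfp866 (0.97) and Ino80dos (0.97). Ccnd1 was nearest to Nckap5l, Mest and Arhgef2, Ccnd2 to Ror2, Ly75 and Smarca1, Ccnd3 to Slc39a8, Creg1 and Gmpr, and Cdkn1c to 2310022B05Rik, Gm26669 and Egln1, with r from 0.986 to 0.997.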

How the data were processed

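The deposited values are raw counts of UMIs per gene and cell barcode, made with Cell Ranger 7.0.0 per the file headers; mm10 and Seurat 4.0.0 are named in the submitters' processing notes with no role, and whether intronic reads were counted is not stated. Barcodes with at least 500 genes and under 10% mitochondrial UMIs were kept, and Scrublet (scanpy 1.11.5, expected rate 0.06) removed 96 and 122 doublets from the mutant libraries and 41 from the control, which left 3590, 4684 and 4048 cells with median depths of 36295.5, 41449.5 and 23045.5 UMIs. Marker cuts were set on the distributions of the marker sums and the floor of 10000 UMIs on the depths seen, without the member genes; 372, 812 and 374 cells at that depth fell in no class.

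UMIs were summed per class and library and tested with edgeR 4.0.16 (R 4.3.3, quasi-likelihood, TMM factors, a floor of 5 CPM on the mean of a gene, Benjamini-Hochberg adjusted p under 0.05 over all genes). Class sums, Fgf8 sides and phase sides of 1 library come from the same pool of embryos, so the library is a block. The tests recovered 200, 200 and 199 of 200 changed genes in simulated data of the 3 designs. The planted changes were large and lay in genes well above the floor, with the same dispersion for every gene and no library effect. This recovery checks the fitting code and does not give the power for small changes or weakly expressed genes. Cells were thinned to 10000 UMIs for shares and co-detection. Intervals (95%) cover counting error only. The genes named are the 8 members in every class, the genes of a 30-gene G1 pathway list past a test, 15 p53 companions, and the 3 genes most like each member. The members and lists were chosen with earlier results of these data known. DESeq2 1.42.0, other scalings, filters, gates, depths and left-out libraries were tried as alternatives; cells with at least 3000 UMIs were added after seeing the data.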

Additional observations from a re-analysis of the deposited data

Results flagged for a closer look

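For several members both mutant levels lay above the control in one class and below it in another, some of them by less than the counting error. None of these differences between classes was tested, and the 1 control library serves every class. Cdkn1a was higher in both mutants in mesenchyme and lower in both in erythroid cells, with mean log2 folds 6.67 apart. In endothelium against erythroid cells its folds were 1.99 apart. In erythroid cells 88 of the control's 287 UMIs lay in 1 cell. Without that cell, left out after its value was seen, mutants 1 and 2 had 1.33 and 6.49 CPM, against 5.01 in the control, so mutant 2 was no longer the lower one. Without the richest cell of every library the levels were 1.06 and 4.66 CPM in the mutants, against 5.01 in the control. Cdkn1b was likewise higher in mutant endothelium and lower in mutant erythroid cells, by 0.68 between the folds. Ccnd1 was lower in mutant endothelium and higher in mutant erythroid cells, with a difference of -1.19 that rests on erythroid levels of 2.44 and 2.13 CPM in the mutants and 1.26 in the control. For Ccnd2 the folds in mesenchyme and endothelium differed by 0.49, but mutant 1 and control mesenchyme hardly differed (254.7 against 254.4 CPM), so only mutant 2 shows opposite signs beyond counting error. Its folds in endothelium and erythroid cells differed by -0.53.

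Outside the 4 classes some members were higher and others lower in both mutants. Among the 372 and 812 mutant cells and 374 control cells at depth in none of the 4 classes, Cdkn1a averaged 25.2 CPM in the mutants (16.9 and 33.6), against 12.3 in the control, and Rb1 19.7 (21.3 and 18.0), against 13.2. Ccnd1 averaged 100.9 there (101.7 and 100.1), against 86.3. In the same cells Cdkn1b was lower, with 24.9 and 23.3 against 34.3, as were Ccnd3, with 141 and 149 against 189, and Ccnd2, with 250 and 234 against 258, where mutant 1 lay within counting error of the control. Among the 782 and 829 mutant cells and 1683 control cells with under 10000 UMIs, Cdkn1a averaged 58.1 (48.7 and 67.5), against 23.3, and Rb1 averaged 53.3 (70.6 and 36.0), against 19.4. Ccnd1 was lower among these shallow cells, with 133 and 163 against 182. The mix of cells differs between the groups. Of the cells at depth in no class, 173 and 382 in the mutants and 30 in the control were myogenic. They passed the myogenic gate with mesenchyme markers under their cut. In those myogenic cells Rb1 was lower in the mutants, with 13.2 and 11.7 CPM, against 24.3 in the control (32 UMIs).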

How the results depend on the processing

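Of the values recomputed for single members, 619 stayed within their limits, 22 lost and 5 gained a call, 21 moved and 8 reversed. For class, Fgf8 and phase comparisons the limit was the direction and the side of the threshold. For mutant against control it was the spread between the mutants, whatever the sign, and for shares of Rb1 the counting interval. Of the counts and shares, 124 stayed within their limits and 38 moved. The number of genes called between mutant and control mesenchyme, 156, was 60 with DESeq2, 358 with the floor on mean levels at 1 CPM and 235 with cells under 5% mitochondrial UMIs. In ectoderm it was 34 with DESeq2 and 20 with a marker cut 1.5 times as high, and DESeq2 called 46 in endothelium and 24 in erythroid cells, against 0 in each with edgeR. No paired analysis was possible because the mutant and control groups share only 1 replicate number and the pools differ. Without the replicate block, members called were 2 in ectoderm against mesenchyme, 1 in the Fgf8 comparison and 0 in the phase comparison, and genes called in the last pair were 432 and 267. Leaving out 1 library gave 723 to 1532 genes in the Fgf8 comparison, lowest without mutant 1, and 2131 to 3275 in the phase comparison, lowest without mutant 2, where DESeq2 called 2038. The Rb1 fold of erythroid cells over mesenchyme, -0.02, was 0.038 with DESeq2's size factors, 0.050 with DESeq2, 0.056 at 1 CPM and 0.16 under 5% mitochondrial UMIs, and -0.39 to 0.26 with 1 library left out. With a library left out, the Cdkn1a fold of ectoderm over mesenchyme ran from -0.33 (without the control) to 1.25 and the Cdkn1c fold of endothelium over mesenchyme from -0.026 (without mutant 1) to 0.50 (called without the control). Shares of cells with a Cdkn1a UMI follow depth. In mesenchyme they were 9.77% in mutant 1 and 9.16% in mutant 2 at 5000 UMIs, 15.7% and 14.8% at 20000 UMIs, and 18.4% and 18.3% unthinned, against 2.37% unthinned in the control. In ectoderm they were 17.2% and 18.4% in the mutants and 14.4% in the control at 5000 UMIs, 53.7% and 43.4% against 43.9% at 20000, 56.8% and 51.7% against 62.6% unthinned, and 32.9% and 42.1% in the mutants under 5% mitochondrial UMIs. The ratio of cells with both Cdkn1a and Rb1 to the product of the shares was 1.54 in mutant 1 and 1.62 in mutant 2 unthinned, and in mutant 2 was 4.62 at 5000 and 2.42 at 20000 UMIs. Without the block the Rb1 call of the phase comparison was lost as well (adjusted p = 0.49 by edgeR). With 1 mutant library left out, mutant against control has no residual degrees of freedom and no test. Lowering the floor to 3000 UMIs per cell, chosen after seeing the data, moved no value past its limit. Apart from fewer libraries or genes, the cause of these shifts was not tested. Counts of 86 UMIs and 6 positive cells limit what can be said of Cdkn1a in control mesenchyme.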
